A study of Mus musculus with 2 samples.

Results

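The genes of F-box proteins and cullins, the parts of a large class of ubiquitin ligases, were examined in the RNA of PB2, the second polar body, and of the zygote it had been split from. They were chosen by symbol: names that start with Fbxw, Fbxl or Fbxo and a number, or with Cul and a number, together with Skp1a, Skp2, Rbx1 and Btrc. The table of 11262 genes held 75 of them, namely 65 F-box genes named Fbx, 6 cullins and the 4 others. Of 89 protein-coding mouse genes whose symbols fit the rule in GENCODE M21, 14 were not analysed here.

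Both samples came from untreated C57BL/6 embryos late in the 1-cell stage. In the paper's general methods the mothers were superovulated with the gonadotropins PMSG and HCG and then mated. The zona pellucida was dissolved with acid Tyrode's solution, and trypsin and pipetting split PB2 from the zygote. Polyadenylated RNA of pooled PB2s and of pooled zygotes was amplified as full-length cDNA, giving 1 library of each. With 1 library per group no replicate check exists, no test was run, and every difference describes these 2 libraries only.

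In an SCF ligase a cullin forms the scaffold, the RING protein Rbx1 at one end brings in the enzyme that carries ubiquitin, and the adaptor Skp1 at the other end holds an F-box protein that picks the substrate. Fbxw proteins bind substrates through WD40 repeats, Fbxl proteins through leucine-rich repeats, and Fbxo proteins carry other domains. Attachment of Nedd8 to the cullin switches the ligase on. In oocytes and early embryos such ligases take part in meiotic arrest, in exit from meiosis and in the removal of maternal proteins.

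The values were TPM, relative transcript abundances on a fixed total that are adjusted for transcript length and for the library's total, so that a level can be compared between genes. TPM gives proportions only, and in pooled samples fewer cells of a kind and less RNA per cell cannot be told apart. The number of reads is unknown. Ratios are given as log2((PB2 TPM + 1)/(zygote TPM + 1)), which is above 0 where PB2 was higher and understates differences between low values. Where values are given in pairs the zygote comes first. All 16 oocyte and zygote markers examined were present, with a summed level of 67439.9 TPM in the zygote against 62476.6 TPM in PB2. Dppa3 alone (22561.9 and 8070.2 TPM) gave the sum its direction, while 11 of the 16 were higher in PB2 (median log2 ratio 0.53). Over all genes compared 6298 of 10645 were. Past 2-fold were 5 in PB2 (31.25%, against 18.9% of all genes) and 1 in the zygote (6.25%, against 8.09%). With the trend on transcript GC content removed 2 and 1 were, where all genes gave 9.06% and 11%. Of 18 cumulus and granulosa markers 6 were in the table, with sums of 88.0 and 89.5 TPM that were mostly Cyp19a1 (72.2 and 70.9 TPM). Cyp11a1, which makes pregnenolone, was listed at 0 in the zygote and at 0.8 TPM in PB2. None of the 6 blood markers was in the table.

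Together the members made up 33049.6 TPM in the zygote against 15181.6 TPM in PB2, or 3.30% and 1.52% of a library. None was listed at 0 in either library, and 74 of 75 reached 1 TPM in at least 1 of them and were compared. The exception was Fbxw10, at 0.7 TPM in the zygote against 0.3 TPM in PB2. At least 2-fold higher in PB2 were 14 members (18.9%), a share set beside 18.9% over the 10645 genes compared. The zygote was higher by 2-fold or more in 17 members (23.0%), against 8.09% of all genes. On this scale the share higher in PB2 was that of the background, and the share higher in the zygote was above it. The 59 compared members outside the genes Fbxw13 to Fbxw28, described below, gave 14 (23.7%) and 5 (8.47%). Without those genes the share higher in the zygote was thus near the background. After the ratios were centred on the median of all genes (0.21) the split over all members compared was 10 against 20, where all genes gave 13% and 12.1%. With the trend on transcript length removed it was 9 against 21, where all genes gave 12.1% and 11.7%. With the GC trend removed it was 11 against 15, where all genes gave 9.06% and 11%.

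Abundant members lay mostly on the zygote side. Among members with at least 100 TPM in either library, 1 of 25 was at least 2-fold higher in PB2 (background 18.3%) and 12 of 25 in the zygote (background 11.7%). Of those 12, all but Skp1a and Cul4b were genes of Fbxw13 to Fbxw28. Of the 22 members under 10 TPM in both libraries, 21 were compared. Past 2-fold were 4 on the PB2 side (19.0%, against 18.9% of all genes) and 3 on the zygote side (14.3%, against 8.09%). Spearman's rho between the log2 ratio and the zygote level was -0.59 across the 74 members and -0.28 across all genes. Across the 59 members without Fbxw13 to Fbxw28 it was -0.39. The zygote level is part of the ratio, so this is a description.

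**Figure D1:**
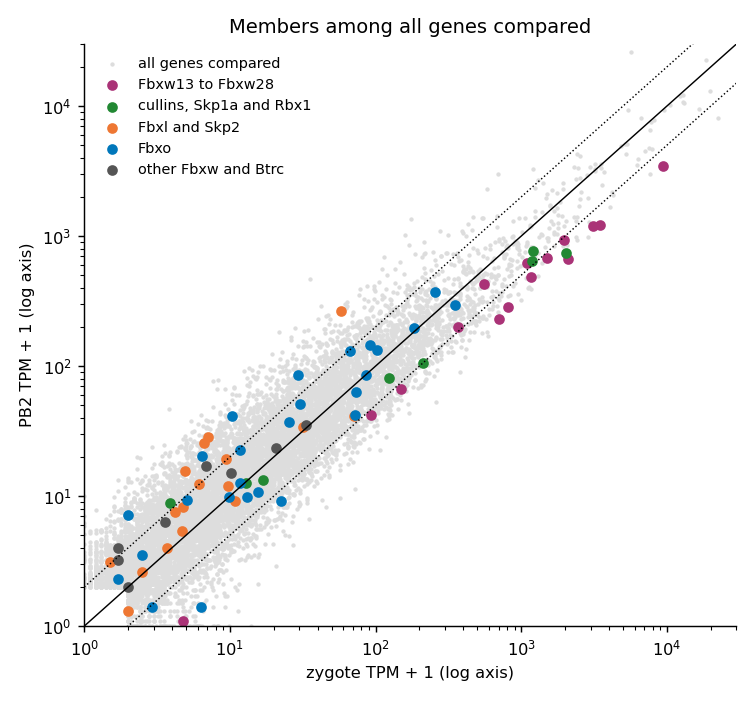
PB2 TPM + 1 against zygote TPM + 1 on log axes for the 74 members compared (colored by group) and for all genes compared (grey), with 1 library of each kind. The solid line marks equal levels and the dotted lines 2-fold. All 15 genes of Fbxw13 to Fbxw28, most of them abundant, lie below the line of equal levels, while the Fbxl members lie mostly above it.

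The 17 members higher in the zygote were mostly genes with the symbols Fbxw13 to Fbxw28, called the family here. Those on chromosome 9 are close paralogs known mainly from mouse oocytes and early embryos. Fbxw17 is counted with them by its symbol only, and its sequence is far less alike. Of its 15 members 12 passed 2-fold on the zygote side (80%, against 8.09% of all genes) and 0 on the PB2 side (against 18.9%). All 15 lay below 0, as did 4262 of the 10645 genes compared. The median log2 ratio was -1.27 (range -2.13 to -0.37), against 0.21 over all genes compared. Without Fbxw17, 11 of 14 passed 2-fold on the zygote side, and the median was -1.22 (range -1.63 to -0.37). The 14 of them on chromosome 9 lay between 109139447 and 109790670 (GRCm38), a stretch of 651 kb, all on the minus strand and with 9 or 10 exons each. No other gene of the table lay inside that stretch. Fbxw17 lay apart, on the plus strand of chromosome 13 (50417864 to 50433780).

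The promoters of Fbxw13 to Fbxw28 were compared as well, taken from RefSeq on GRCm38.p6 as the 250 bases before and 50 bases after each start. RefSeq entries were matched for 12 of the 15, 11 of them on chromosome 9. Shown here are Fbxw24 (chr9:109626010-109626309, minus strand) and Fbxw28 (chr9:109339610-109339909, minus strand), the most abundant pair, Fbxw21 (chr9:109161973-109162272, minus strand), with the ratio nearest 0, and Fbxw17 (chr13:50417614-50417913, plus strand), the member elsewhere. Capitals mark CAGCTG, a palindrome and thus the same on both strands, which is 1 form of the E-box CANNTG. The motif was picked after the sequences had been seen.
Fbxw24: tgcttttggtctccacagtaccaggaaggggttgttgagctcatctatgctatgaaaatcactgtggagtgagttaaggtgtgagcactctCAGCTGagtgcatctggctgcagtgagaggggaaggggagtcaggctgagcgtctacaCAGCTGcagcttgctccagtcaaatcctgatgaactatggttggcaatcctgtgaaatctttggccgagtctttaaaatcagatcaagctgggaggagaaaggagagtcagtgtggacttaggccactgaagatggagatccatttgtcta
Fbxw28: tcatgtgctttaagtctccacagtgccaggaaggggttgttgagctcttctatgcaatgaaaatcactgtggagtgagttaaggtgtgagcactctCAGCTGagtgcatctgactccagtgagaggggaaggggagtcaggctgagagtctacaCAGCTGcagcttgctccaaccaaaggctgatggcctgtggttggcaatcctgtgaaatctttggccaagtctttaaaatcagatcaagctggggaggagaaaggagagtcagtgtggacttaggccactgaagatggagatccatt
Fbxw21: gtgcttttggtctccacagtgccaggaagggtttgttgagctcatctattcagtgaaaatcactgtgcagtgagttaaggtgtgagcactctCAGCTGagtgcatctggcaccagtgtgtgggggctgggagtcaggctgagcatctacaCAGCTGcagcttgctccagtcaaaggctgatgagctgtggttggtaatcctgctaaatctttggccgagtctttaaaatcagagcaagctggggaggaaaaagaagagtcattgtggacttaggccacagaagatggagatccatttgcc
Fbxw17: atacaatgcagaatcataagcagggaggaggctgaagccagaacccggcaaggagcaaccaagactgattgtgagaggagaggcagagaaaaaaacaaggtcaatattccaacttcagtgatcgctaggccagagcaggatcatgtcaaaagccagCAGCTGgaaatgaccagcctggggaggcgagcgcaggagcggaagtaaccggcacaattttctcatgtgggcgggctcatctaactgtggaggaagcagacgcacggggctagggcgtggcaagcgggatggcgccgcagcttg

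Each of the 11 promoters on chromosome 9 held CAGCTG 1 or 2 times, as did that of Fbxw17 once. Over all 32851 mouse promoters of this length 16.3% held it, and among the other members 8 of 44 did (18.2%). The first base of the matches lay at -159 and -101 from the start in Fbxw24, at -154 and -96 in Fbxw28, at -158 and -100 in Fbxw21 and at -94 in Fbxw17. The looser CANNTG, of which CAGCTG is a part, was in 72.3% of all promoters. TATAAA was in 0 of the 11 and in 13.6% of all promoters, on either strand. The 11 promoters were 64.2% to 97.0% identical in pairs (median 85.6%), and that of Fbxw17 was 42.2% to 46.3% identical to them. The motif thus sits in sequence that is alike as a whole, and no binding was measured. Any link between promoter sequence and the ratio of PB2 to zygote was not tested.

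Fbxw24 was the most abundant member in both libraries, at 9410.1 TPM in the zygote against 3461.6 TPM in PB2 (log2 ratio -1.44). It ranked 11 among all genes of the zygote and 30 in PB2. Fbxw28 followed with 3487.1 TPM in the zygote against 1217.2 TPM in PB2 (log2 ratio -1.52), at ranks 35 and 89. Fbxw14 stood at 3120.4 TPM in the zygote against 1189.5 TPM in PB2 (log2 ratio -1.39). Of the 100 most abundant genes of the zygote 6 were members of this family, and of the 100 most abundant in PB2, 3 were.

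A middle tier of levels followed. Fbxw15 had the widest difference on chromosome 9, at 2079.0 TPM in the zygote against 670.2 TPM in PB2 (log2 ratio -1.63). Fbxw22 was at 1976.9 and 924.7 TPM (log2 ratio -1.10). Fbxw18 was at 1490.0 and 673.2 TPM (log2 ratio -1.15). These were higher in the zygote by margins of the same order as those of Fbxw24. Fbxw20 was at 1161.8 TPM in the zygote against 482.6 TPM in PB2 (log2 ratio -1.27). Fbxw19 was at 809.5 and 281.5 TPM (log2 ratio -1.52), and Fbxw16 at 706.7 and 229.6 TPM (log2 ratio -1.62). All of these were past 2-fold. The members under 2-fold were Fbxw27 at 1101.3 and 615.5 TPM (log2 ratio -0.84), Fbxw26 at 367.7 and 199.5 TPM (log2 ratio -0.88) and Fbxw21.

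Fbxw21 was the least unequal, at 549.7 TPM in the zygote against 426.3 TPM in PB2 (log2 ratio -0.37). Its position in the stretch is the outermost on the low-coordinate side. The least abundant on chromosome 9 were Fbxw25, at 149.2 and 65.4 TPM (log2 ratio -1.18), and Fbxw13, at 91.4 and 41.2 TPM (log2 ratio -1.13). Fbxw17 was near the lower limit of the table, at 3.8 TPM in the zygote against 0.1 TPM in PB2 (log2 ratio -2.13). Values are rounded to 0.1 TPM, and for Fbxw17 this alone allows a zygote level between 25 and 77 times that of PB2.

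**Figure D2:**
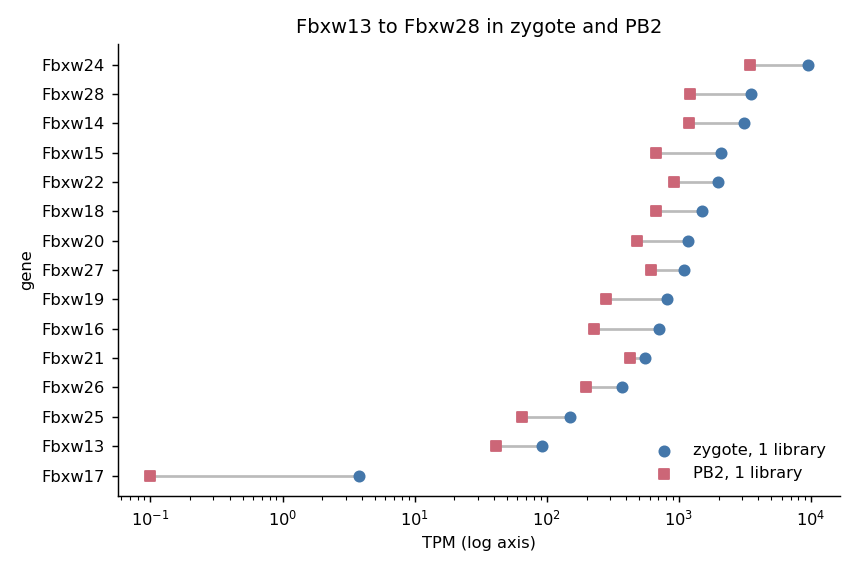
TPM of Fbxw13 to Fbxw28 in the zygote (circles) and in PB2 (squares) on a log axis, 1 library each, ordered by zygote level. Every square lies left of its circle, with the narrowest gap in Fbxw21 (549.7 and 426.3 TPM).

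Across the 14 genes on chromosome 9 the levels spanned 103-fold in the zygote and 84.0-fold in PB2, while the zygote-to-PB2 ratio ran only from 1.29 in Fbxw21 to 3.10 in Fbxw15. The order was much the same, with a Spearman's rho of 0.97 between the libraries over these 14 genes. The top 3 (Fbxw24, Fbxw28, Fbxw14) and the bottom 3 (Fbxw26, Fbxw25, Fbxw13) were in the same order in both. The family's sum was 26504.6 TPM in the zygote against 10478.1 TPM in PB2, giving a ratio of 2.53. It made up 80.2% of the members' TPM in the zygote and 69.0% in PB2, with Fbxw24 giving 35.5% and 33.0% of the family's sum.

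How far reads can be told apart bears on single members of this family. Coding sequences on chromosome 9 were 76.3% to 94.6% identical in pairs (91 pairs, median 82.7%), with coding lengths of 1296 to 1407 bases. Fbxw14 and Fbxw28 were the closest pair at 94.6%, and Fbxw17 was 48.1% to 51.7% identical to the others. Windows of 100 bases that occurred unchanged in transcripts of another gene made up 48.3% of Fbxw28 and 44.8% of Fbxw14, and under 10% in the other 12. Among the other 61 members the median was 0%, with 43.6% in Fbxl12, 32.6% in Fbxw8 and 23.5% in Fbxw4. The levels of Fbxw14 and Fbxw28 taken alone are therefore uncertain, and how shared reads were treated is not stated. Summed, the pair was at 6607.5 TPM in the zygote against 2406.7 TPM in PB2 (log2 ratio -1.46), and the family's median without it was -1.18.

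The scaffold and adaptor genes also lay mostly on the zygote side. Of 8 genes (6 cullins, Skp1a and Rbx1) 7 lay below 0, as did 4262 of the 10645 genes compared. Past 2-fold were 2 on the zygote side (25%, against 8.09% of all genes) and 1 on the PB2 side (12.5%, against 18.9%). The median log2 ratio of the 8 was -0.64 (range -1.47 to 1.19), and their sum was 4792.2 TPM in the zygote against 2354.1 TPM in PB2. Skp1a, the adaptor (chromosome 11, 52231995 to 52246858, plus strand), was at 2033.4 TPM in the zygote against 735.2 TPM in PB2 (log2 ratio -1.47). Cul1, the scaffold of SCF ligases (chromosome 6, 47453398 to 47526139, plus strand), was at 1203.3 and 759.8 TPM (log2 ratio -0.66). Rbx1, the RING subunit (chromosome 15, 81466296 to 81476369, plus strand), was at 1191.6 and 643.3 TPM (log2 ratio -0.89). The 3 common subunits of the SCF were thus all lower in PB2, of which only Skp1a passed 2-fold.

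The other cullins serve other adaptors. Cul4a and Cul4b, paralogs that both work with the adaptor Ddb1, differed in opposite directions. Cul4b was at 210.7 TPM in the zygote against 104.0 TPM in PB2 (log2 ratio -1.01). Cul4a was at 2.9 TPM in the zygote against 7.9 TPM in PB2 (log2 ratio 1.19). Cul4b was the more abundant of the pair in both libraries. Cul5, which binds SOCS-box proteins through elongins, was at 122.5 and 80.0 TPM (log2 ratio -0.61). Cul2, the scaffold for the VHL protein, was at 16.0 and 12.3 TPM (log2 ratio -0.35). Cul3, which binds BTB proteins, was nearly equal at 11.8 and 11.6 TPM (log2 ratio -0.02).

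**Figure D3:**
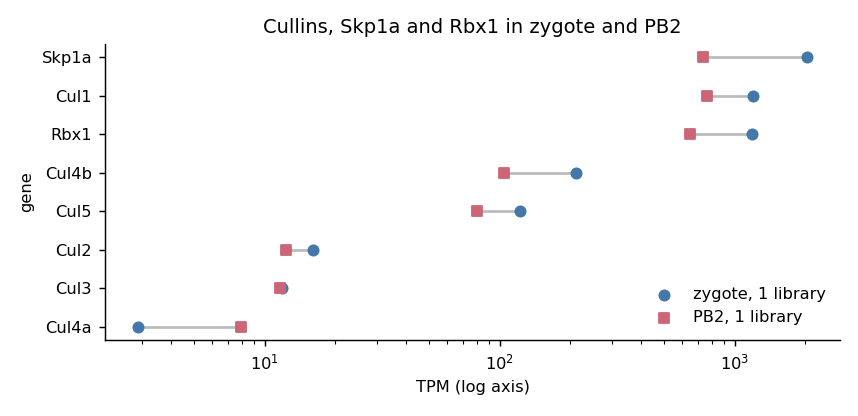
TPM of the 6 cullins, Skp1a and Rbx1 in the zygote (circles) and in PB2 (squares) on a log axis, 1 library each. Skp1a has the widest gap to the left (2033.4 to 735.2 TPM), Cul3 nearly coincides, and Cul4a is the gene with the square on the right.

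The Fbxl genes leaned the other way. With Skp2, which carries leucine-rich repeats as well, they numbered 17, with 7 past 2-fold on the PB2 side (41.2%, against 18.9% of all genes), 0 on the zygote side (against 8.09%) and a median log2 ratio of 0.79. With the GC trend removed 5 of the 17 were past 2-fold on the PB2 side, where all genes gave 9.06%. The 16 Fbxl genes without Skp2 had a median of 0.55 and summed to 217.0 TPM in the zygote against 467.3 TPM in PB2. Fbxl6 made up much of that sum, at 56.6 TPM in the zygote against 264.6 TPM in PB2 (log2 ratio 2.21). Its transcript had a GC content of 60.1%, and with the GC trend of all genes removed its log2 ratio was 1.25.

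Fbxl19, whose protein binds unmethylated CpG islands, was at 6.1 TPM in the zygote against 27.4 TPM in PB2 (log2 ratio 2.0). Fbxl14, a receptor for Snail proteins, was at 5.6 and 24.6 TPM (log2 ratio 1.96). Fbxl2 was at 3.9 and 14.5 TPM (log2 ratio 1.66). With the GC trend removed these 3 were at 1.04, 1.30 and 1.47. Fbxl20 was at 8.4 TPM in the zygote against 18.2 TPM in PB2 (log2 ratio 1.03), and with the GC trend removed its ratio was 0.78, under 2-fold. Skp2, the receptor for the cell cycle inhibitor p27, was at 5.1 and 11.3 TPM (log2 ratio 1.01). Most of the Fbxl genes past 2-fold were thus below 10 TPM in the zygote, with Fbxl6 as the exception.

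Other Fbxl genes of known role differed less. Fbxl17, which removes wrongly paired BTB proteins, was the most abundant Fbxl gene of the zygote at 70.5 TPM and was at 40.5 TPM in PB2 (log2 ratio -0.78). Fbxl5, the iron-sensing receptor for Irp2, was at 30.9 and 33.2 TPM (log2 ratio 0.10). Fbxl4, a mitochondrial protein, was at 9.9 and 8.1 TPM (log2 ratio -0.26). A further 7 lay between 0.5 and 3.8 TPM in the zygote and between 0.3 and 7.3 TPM in PB2, and 1 of them, Fbxl18, was past 2-fold (0.5 and 2.1 TPM, log2 ratio 1.05, or 0.27 with the GC trend removed).

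The 26 Fbxo genes were the most evenly spread group. Past 2-fold on the PB2 side were 4 (15.4%) and on the zygote side 3 (11.5%), near the 18.9% and 8.09% of all genes, and the median log2 ratio was 0.41 (range -2.17 to 1.99). Fbxo5, or Emi1, an inhibitor of the anaphase-promoting complex, was the most abundant in PB2, at 253.7 TPM in the zygote against 370.2 TPM in PB2 (log2 ratio 0.54). Fbxo43, or Emi2, holds the mature egg in metaphase of meiosis II through the same complex, and was at 66.2 and 128.9 TPM (log2 ratio 0.95). Both inhibitors were higher in PB2 without passing 2-fold, but with the GC trend removed Fbxo43 was at 1.14 and past it.

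Fbxo34 was the most abundant Fbxo gene of the zygote, at 347.6 TPM there and 293.9 TPM in PB2 (log2 ratio -0.24). Fbxo8, which carries a Sec7 domain, was at 181.1 and 196.4 TPM (log2 ratio 0.12). Fbxo15, known as a gene of pluripotent cells, was at 101.2 and 132.3 TPM (log2 ratio 0.38). These abundant Fbxo genes were within 2-fold. Fbxo28 was at 90.3 and 145.0 TPM (log2 ratio 0.68), and Fbxo11, a receptor for Bcl6, at 72.0 and 62.1 TPM (log2 ratio -0.21).

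Past 2-fold, Fbxo21 was at 9.4 TPM in the zygote against 40.4 TPM in PB2 (log2 ratio 1.99). Fbxo10, a receptor for Bcl2, was at 1.0 and 6.1 TPM (log2 ratio 1.83). Fbxo22 was at 5.4 and 19.2 TPM (log2 ratio 1.66). These 3 were low in the zygote, whereas Fbxo42 was at 28.5 TPM in the zygote against 84.1 TPM in PB2 (log2 ratio 1.53). With the GC trend removed Fbxo21 was at 1.49, Fbxo10 at 1.09, Fbxo22 at 1.43 and Fbxo42 at 1.05. On the zygote side Fbxo47, needed for meiosis in the male germ line, was at 5.3 TPM in the zygote against 0.4 TPM in PB2 (log2 ratio -2.17). Fbxo36 was at 21.3 and 8.1 TPM (log2 ratio -1.29). With the GC trend removed Fbxo47 was at -1.94 and Fbxo36 at -1.61. The remaining 13 ranged from 0.7 to 85 TPM in the zygote and from 0.4 to 84 TPM in PB2, and 1 of them, Fbxo45, was past 2-fold on the zygote side (1.9 and 0.4 TPM).

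The Fbxw genes outside the family, with Btrc, were low and did not share its direction. Of 9 genes 8 were compared, and the median log2 ratio was 0.69. Past 2-fold were 2 on the PB2 side (25%, against 18.9% of all genes) and 0 on the zygote side (against 8.09%). Btrc, the receptor for beta-catenin and for Emi1, was at 32.2 TPM in the zygote against 34.5 TPM in PB2 (log2 ratio 0.10). Its paralog Fbxw11 was at 9.2 and 14.1 TPM (log2 ratio 0.57). Fbxw7, the receptor for cyclin E and Myc, was at 2.6 and 5.3 TPM (log2 ratio 0.81). Fbxw5 was at 5.9 TPM in the zygote against 16.1 TPM in PB2 (log2 ratio 1.31), and Fbxw2 at 0.7 and 3.0 TPM (log2 ratio 1.23), the pair past 2-fold. Fbxw4, linked to limb development, was at 19.7 and 22.6 TPM (log2 ratio 0.19). Fbxw8, the partner of Cul7, was at 0.7 and 2.2 TPM (log2 ratio 0.91), and Fbxw9 was at 1.0 TPM in both.

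**Figure D4:**
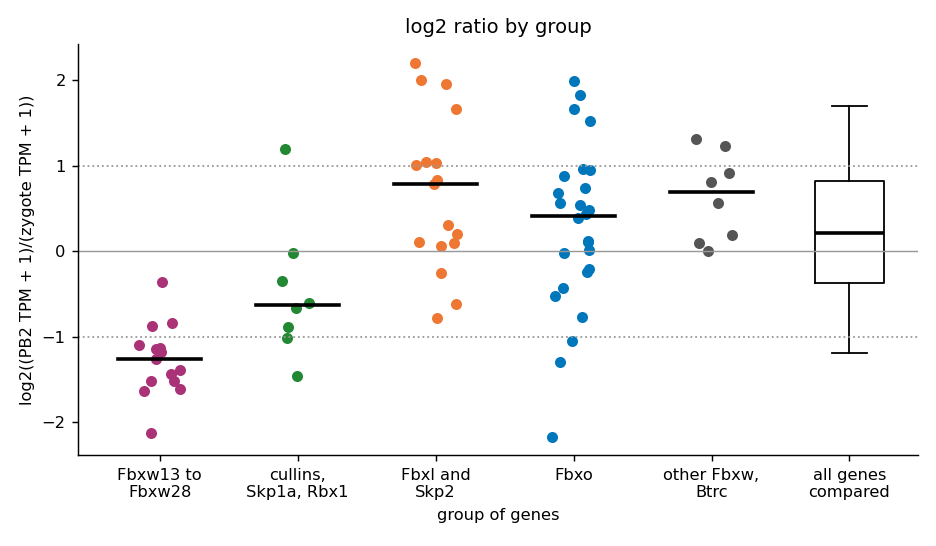
Log2 ratio of PB2 to zygote for each member compared, by group, with a bar at the group's median. The box shows all genes compared (middle line the median, box the quartiles, whiskers the 5th and 95th percentiles), and dotted lines mark 2-fold. Fbxw13 to Fbxw28 lie entirely below 0 (median -1.27), the cullins, Skp1a and Rbx1 mostly below it (median -0.64), and Fbxl with Skp2 mostly above it (median 0.79).

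GC content and length of the transcript moved with the ratio in these libraries. Across all genes Spearman's rho of the log2 ratio with GC content was 0.44 and with length 0.17, and across the 74 members 0.51 and 0.52. Without the Fbxw13 to Fbxw28 family, whose transcripts are short, the 59 other members gave 0.49 and 0.16. The median GC content was 44.2% in the Fbxw13 to Fbxw28 family, 42.5% in the cullins, Skp1a and Rbx1, 49.7% in Fbxl with Skp2 and 49.2% over all genes. With the GC trend of all genes removed, the medians were -1.24 in the family, -0.39 in the cullins, Skp1a and Rbx1, 0.35 in Fbxl with Skp2 and 0.28 in Fbxo. For the other Fbxw genes with Btrc the median was also 0.35. All 15 members of the family then still lay below 0, where 5266 of 10629 genes did. Past 2-fold on the zygote side were 11 of the 15, where all genes gave 11%. Of the 8 genes of cullins, Skp1a and Rbx1, 6 then lay below 0, where 5266 of 10629 genes did. Cul2 was at -0.05, while Cul3 (0.38) and Cul4a (0.996) lay above 0. Skp1a was at -1.39, and neither Cul4a nor Cul4b (-0.73) was past 2-fold. Fbxw17, with a GC content of 53.9%, was at -2.70, and Fbxw5 at 0.47. The part of GC content or length in the ratios was not tested further.

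**Figure D5:**
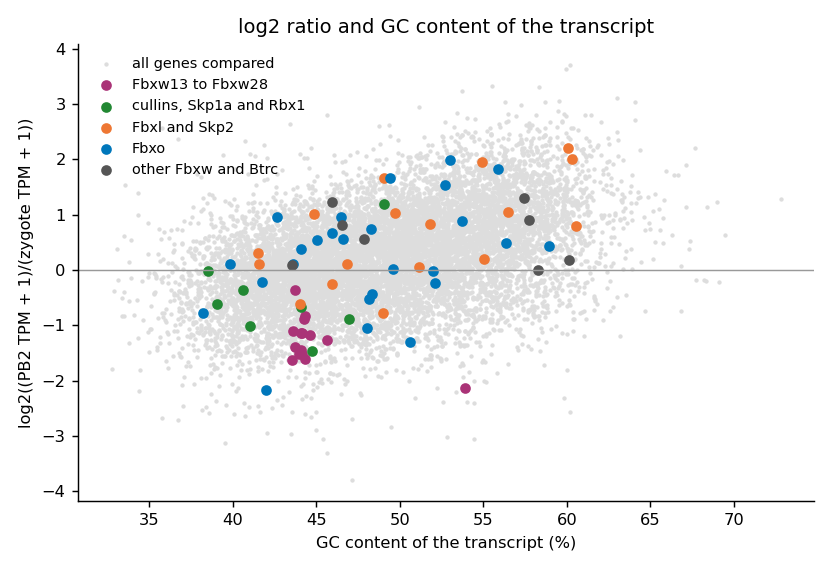
Log2 ratio of PB2 to zygote against transcript GC content in percent, for the 74 members compared (colored by group) and all genes compared (grey). The cloud of all genes rises with GC content (rho 0.44), and the Fbxw genes of chromosome 9 sit near 44% GC in the lower part of the cloud, with Fbxw17 alone at 53.9%.

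Beside the members, 88 other genes of the cullin pathway were in the table and 87 were compared. At least 2-fold higher in PB2 were 20 (23.0%, against 18.9% of all genes) and in the zygote 8 (9.20%, against 8.09%), with a median log2 ratio of 0.42. Of the 24 genes of neddylation and its removal 2 were past 2-fold on the PB2 side (8.33%, against 18.9% of all genes). On the zygote side 4 were (16.7%, against 8.09%), and the median was -0.21. Nedd8 itself was at 571.6 TPM in the zygote against 230.6 TPM in PB2 (log2 ratio -1.31). Nae1, a subunit of the enzyme that activates Nedd8, was at 205.5 and 70.2 TPM (log2 ratio -1.54). These 2 genes were singled out after their values had been seen. Glmn, an inhibitor that binds Rbx1, was at 122.9 and 40.2 TPM (log2 ratio -1.59). In the opposite direction, Dcun1d5, which helps load Nedd8 onto cullins, was at 145.5 TPM in the zygote against 627.8 TPM in PB2 (log2 ratio 2.10).

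Of the 10 genes of ubiquitin-carrying enzymes and their partners 2 were past 2-fold on the PB2 side (20%, against 18.9% of all genes). On the zygote side 0 were (against 8.09%), and the median was 0.56. Cdc34, the enzyme that works with SCF ligases, was at 44.2 TPM in the zygote against 179.0 TPM in PB2 (log2 ratio 1.99). Its transcript had a GC content of 63.3%, and with the GC trend removed its ratio was 0.96 and 0 of the 10 passed 2-fold. Of 48 adaptors and receptors of other cullins 16 were past 2-fold on the PB2 side (33.3%, against 18.9% of all genes) and 4 on the zygote side (8.33%, against 8.09%), with a median of 0.78. With the GC trend removed 10 were past 2-fold on the PB2 side (all genes 9.06%) and the median was 0.29. Ddb1, the adaptor of Cul4a and Cul4b, was at 61.7 TPM in the zygote against 187.2 TPM in PB2 (log2 ratio 1.59). Dcaf13, a receptor on the same adaptor, was at 259.6 and 51.6 TPM (log2 ratio -2.31), and Crbn, another, at 28.7 and 7.4 TPM (log2 ratio -1.82). Genes around Cul4 thus lay on both sides. Kctd13, a BTB protein of Cul3 ligases, was at 31.5 TPM in the zygote against 184.4 TPM in PB2 (log2 ratio 2.51). Klhdc2 and Klhdc3, which recognise C-terminal degrons with Cul2, were at 215.9 and 742.1 TPM (log2 ratio 1.78) and at 51.8 and 206.2 TPM (log2 ratio 1.97). Socs7, a SOCS-box protein, was at 11.4 and 47.3 TPM (log2 ratio 1.96). The 5 F-box genes whose names fall outside the symbol rule were all under 2-fold.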

How the data were processed

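PB2 and zygotes of mouse 1-cell embryos gave 1 RNA-seq library each. According to the methods and the submitters' processing notes, the authors aligned reads with HISAT2 2.0.4, counted them per gene with HTSeq 0.6.1p1 and used DESeq2 1.18.1. OryCun2.0, a rabbit assembly, and GRCm38 are both named as builds, and the identifiers in the table are mouse. The authors deposited TPM rounded to 0.1. How TPM was computed is not given in the sources used here, and depth is unknown, so no counting interval is given.

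Genes with at least 1 TPM in either library were compared on log2 values with a pseudocount of 1, and those at least 2-fold apart were counted. Transcript GC content, length and coordinates came from GENCODE M21 (GRCm38), by Ensembl ID, for all 75 members. Loess trends (span 0.3) were subtracted where stated. Identity is the share of identical positions in a pairwise alignment. The functions for the log2 ratio and for removing a trend were tested on simulated data with a GC trend.

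The members and lists were chosen with earlier results of these data known. Values are printed for the cullins, Skp1a, Skp2, Rbx1, Btrc and all Fbxw genes, for Fbxl and Fbxo genes at least 2-fold apart reaching 5 TPM in the higher library, for the 5 most abundant Fbxl and Fbxo genes of each library, and for Fbxo5, Fbxo43, Fbxo15, Fbxl5 and Fbxo11. The values of 1 member are not reported here, though it is in the counts. Of the other pathway genes, the 10 with the largest ratios among those at least 2-fold apart reaching 10 TPM in the higher library are named. Fbxl18, Fbxo45, Nedd8, Nae1 and the genes given for markers, substrates and neighbours were named after their values were seen. Alternatives were a pseudocount of 0.1 or 0.01, a fold threshold of 1.5 or 4, a filter at 5 TPM or none, scaled zygote values, TPM recomputed after leaving out mitochondrial genes and the top 50, centring, and subtraction of a GC or a length trend. Software was Biopython 1.88, matplotlib 3.10.9, statsmodels 0.14.6, pandas 2.3.3, scipy 1.17.1 and numpy 2.4.6 under Python 3.11.15.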

Additional observations from a re-analysis of the deposited data

How the results depend on the processing

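Depth and the spread between libraries are unknown, which limits every ratio of low values. Of 560 pairs of a result and an alternative, 535 moved by less than the limits (1.5 times for a count, 0.5 for a log2 value) and 25 by more, 4 of them counts over all members. The count higher in PB2, 14, became 23 at 1.5-fold, 9 with the length trend removed and 2 at 4-fold. The count higher in the zygote, 17, became 2 at 4-fold. Those 2 were Fbxo47 (5.3 and 0.4 TPM) and Fbxw17 (3.8 and 0.1 TPM), both low. None of the Fbxw genes of chromosome 9 reached 4-fold, the widest being Fbxw15 at -1.63. The share of all genes at 1.5-fold and 4-fold is not given here. The cause was not tested, beyond the thresholds' own construction. The median of all members, 0.08, lay between -0.24 and 0.10 and was below 0 with a filter at 5 TPM, after centring and with either trend removed. The median of Fbxw13 to Fbxw28 stayed between -1.48 and -1.22 under these alternatives. Chosen after seeing the data, leaving out Fbxw17 gave -1.22 and leaving out Fbxw14 and Fbxw28 gave -1.18. The 21 other shifts were of single genes, mostly under a small pseudocount or with the GC trend removed. Among them Fbxw17 reached -5.11 at a pseudocount of 0.01, and Fbxw4 went from 0.19 to -0.77 with the GC trend removed. No paired analysis was possible because only 1 library of each kind exists here and no test was run.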

Other observations

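Known substrates of F-box proteins were examined as a list of 31 genes, of which 28 were in the table and 27 were compared. At least 2-fold higher in PB2 were 6 (22.2%, against 18.9% of all genes) and 0 were so in the zygote (against 8.09%), with a median log2 ratio of 0.42. Cry1, a cryptochrome of the circadian clock, was at 68.0 TPM in the zygote against 217.7 TPM in PB2 (log2 ratio 1.66). Cdc25a, a phosphatase that activates cyclin-dependent kinases, was at 27.8 and 86.7 TPM (log2 ratio 1.61). Ctnnb1, which encodes beta-catenin, was at 50.2 and 149.3 TPM (log2 ratio 1.55). Cpeb1, which controls translation of stored oocyte mRNA, was at 74.6 and 198.6 TPM (log2 ratio 1.40). Cdt1, the replication licensing factor, was at 53.7 and 122.1 TPM (log2 ratio 1.17), and 0.27 with the GC trend removed. Per1 was low, at 0.9 and 2.8 TPM. The kinase Wee2, known from meiotic arrest of the oocyte, was nearly equal at 523.3 and 553.3 TPM (log2 ratio 0.08). RNA levels alone are given here, and protein was not measured.

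Genes beside the Fbxw stretch of chromosome 9 were looked up as well. Within 500 kb on either side lay 16 other genes of the table, of which 15 were compared, with a median log2 ratio of 0.85 (range -1.56 to 1.61), against 0.21 over all genes. Of the 15, 3 were past 2-fold on the PB2 side (18.9% of all genes were) and 2 on the zygote side (8.09% of all genes), Ip6k2 (80.6 TPM in the zygote, 26.7 TPM in PB2) and Nme6 (17 and 7.4 TPM). Cdc25a is 1 of these neighbours.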
